A study of Mus musculus with 16 samples.

Results

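The transcripts described here are those of 35 genes that carry glucose into the cell, split it to pyruvate, and then decide whether the pyruvate becomes lactate or enters the mitochondrion. They were chosen by name, with no measured value in the rule, and all 35 are rows of each of the 3 expression tables of the series. A pair of these tables lists 38926 genes and the other lists 21603. RNA was sequenced from bone endothelial cells (ECs) of C57BL/6 mice in 16 libraries, which form 3 comparisons with controls of their own. The first sets 3 libraries of bone marrow ECs (bmECs), from the marrow cavity of the femoral shaft, against 3 libraries of metaphyseal ECs (mpECs), from the region next to the growth plate. These cells were wild type and came from 3-week-old animals that carried the reporter Cdh5-mT/nG, which marks ECs by fluorescent proteins under the Cdh5 promoter. In the second, 3 libraries labelled Yap1/Taz ECKO (Yap1flx/flx; Wwtr1flx/flx, Cdh5CreERT2 positive) stand against 3 control libraries with the same floxed alleles and no Cre, all from postnatal day 21. The third sets 2 libraries of Lats2 cKO (Lats2flx/flx, Cdh5CreERT2 positive) against 2 Lats2flx/flx controls without Cre, from 3-week-old mice. CreERT2 is a recombinase that acts only after tamoxifen, and the Cdh5 promoter limits it to ECs. Pups received tamoxifen, controls were littermates, and the ECs were sorted by fluorescence. The study's methods name biological triplicates, although each Lats2 group here has 2 libraries. Nothing in the sources says how many animals stand behind a library, so p-values set differences against the spread between libraries.

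Glycolysis turns 1 molecule of glucose into pyruvate in a chain of enzymes, several of which exist as isoforms encoded by separate genes. Lactate dehydrogenase converts pyruvate to lactate and back, monocarboxylate transporters carry lactate across the plasma membrane, and the mitochondrial pyruvate carrier takes pyruvate to the pyruvate dehydrogenase complex. The pyruvate dehydrogenase kinases switch that complex off. ECs draw much of their energy from glycolysis, and many genes of the pathway are known targets of the hypoxia-inducible factors. Yap1 and Taz, the product of Wwtr1, are transcriptional coregulators, and Lats2 is a Hippo pathway kinase that restrains them.

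The tables hold FPKM, which corrects the reads of a gene for its length and for the depth of the library. Reads on genes, recovered from the steps between low values, ran from 11116518 to 14749110 in the mpEC and bmEC libraries, from 4885721 to 7163577 in the Yap1/Taz libraries and from 4731123 to 7069564 in the Lats2 libraries. A single read on a gene of 2000 bases was worth 0.0405 to 0.133 FPKM. The 8 endothelial markers were present in all 16 libraries, with a summed level of 1147.9 to 1468.6 FPKM in the mpEC and bmEC libraries, 508 to 693 in the Yap1/Taz libraries and 2057.6 to 2225.4 in the Lats2 libraries. RNA of other marrow cells was present as well. The 7 erythroid markers in that table summed to between 28251 and 60395 FPKM in the mpEC and bmEC libraries, where the beta globin gene Hbb-bs was the top gene of each. In bulk samples, fewer cells of a type and less RNA per cell cannot be told apart. The targeted genes did not all follow the labels. Wwtr1 measured 10, 9.88 and 10.3 FPKM in the Yap1/Taz controls and 15.3, 19.6 and 19.5 FPKM in the libraries labelled ECKO, a rise in the gene named as deleted (log2 fold change 0.78 ± 0.12 SE, limma adjusted p = 0.0272). Yap1 stayed near 1 FPKM in both groups (1.07, 1.62 and 0.995 against 1.43, 1.03 and 0.989). Lats2 measured 23.4 and 24 FPKM in its controls and 19.2 in both cKO libraries, a difference that was not called (-0.29 ± 0.11, limma adjusted p = 0.125). Wwtr1 was called higher in Lats2 cKO as well. These values cover all exons of a gene, and the exons between the loxP sites were not separated. Directions in the Yap1/Taz comparison are therefore given for the libraries labelled ECKO. The study itself reports lower Yap1 and Wwtr1 transcripts by quantitative PCR in isolated Yap1/Taz mutant bone ECs, and weaker Yap1 immunostaining. In isolated bone ECs of its Lats2 mutants it reports lower Lats2 transcripts.

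Some members share long stretches with other genes, mostly processed pseudogenes. Of the 50-base windows of the longest coding transcript, 82.5% for Gapdh, 72.2% for Eno1, 68% for Pgk1, 41.5% for Pgam1 and 34.4% for Pkm also occur in another gene of the GENCODE annotation. The values for Ldhb (27%), Mpc1 (23.2%), Gpi1 (19.3%), Ldha (16.6%), Aldoa (13.5%) and Tpi1 (7.51%) were lower. No window was shared for Slc2a1, Slc16a1, Slc16a3, Bpgm or Pdk1. Levels of Gapdh, Eno1, Pgk1, Pgam1 and Pkm are accordingly uncertain, because how the counting treated reads with several matches was not given in the sources used here. Exons of Mpc1 overlapped a gene on the other strand over 23.1% of their bases, those of Pdha1 over 16.1% and those of Gpi1 over 11.5%. Exons of Pfkfb2 (17.4%), Pkm (15.3%) and Pfkm (10.2%) overlapped another gene on the same strand.

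Promoter windows of 5 members are shown because these genes had the largest log2 fold changes of the set in a comparison, or encode the most abundant lactate dehydrogenase. The windows come from RefSeq on GRCm38.p6 and run from 250 bases before to 50 after the start, 5′ to 3′. Capitals mark the letters ACGTG or GCGTG, the core bound by hypoxia-inducible factors, read on either strand, so that a CACGTG counts once on each strand.
Slc16a1 (chr3:104638414-104638713, + strand): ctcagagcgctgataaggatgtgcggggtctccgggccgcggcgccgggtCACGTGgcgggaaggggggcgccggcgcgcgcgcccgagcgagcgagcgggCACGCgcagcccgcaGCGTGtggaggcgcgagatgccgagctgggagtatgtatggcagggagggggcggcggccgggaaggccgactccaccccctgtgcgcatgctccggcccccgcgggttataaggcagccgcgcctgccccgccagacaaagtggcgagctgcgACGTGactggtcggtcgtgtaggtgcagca
Pdk1 (chr2:71872974-71873273, + strand): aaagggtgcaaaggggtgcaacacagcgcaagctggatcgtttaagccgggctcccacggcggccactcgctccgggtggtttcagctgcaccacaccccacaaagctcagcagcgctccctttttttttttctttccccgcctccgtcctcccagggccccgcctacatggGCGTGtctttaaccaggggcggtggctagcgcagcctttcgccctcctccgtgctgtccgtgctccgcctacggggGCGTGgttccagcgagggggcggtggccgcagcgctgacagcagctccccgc
Tpi1 (chr6:124814109-124814408, - strand): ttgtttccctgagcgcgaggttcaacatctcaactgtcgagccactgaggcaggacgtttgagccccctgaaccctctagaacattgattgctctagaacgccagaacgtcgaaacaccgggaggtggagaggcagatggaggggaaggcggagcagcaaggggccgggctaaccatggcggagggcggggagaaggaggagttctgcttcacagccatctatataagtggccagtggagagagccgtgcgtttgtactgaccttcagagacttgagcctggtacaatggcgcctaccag
Ldha (chr7:46845554-46845853, + strand): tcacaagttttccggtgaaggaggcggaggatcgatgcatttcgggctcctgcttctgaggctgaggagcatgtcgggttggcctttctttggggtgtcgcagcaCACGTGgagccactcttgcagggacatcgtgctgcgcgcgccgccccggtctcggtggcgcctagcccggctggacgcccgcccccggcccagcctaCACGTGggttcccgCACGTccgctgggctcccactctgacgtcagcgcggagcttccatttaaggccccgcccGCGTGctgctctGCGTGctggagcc
Bpgm (chr6:34476106-34476405, + strand): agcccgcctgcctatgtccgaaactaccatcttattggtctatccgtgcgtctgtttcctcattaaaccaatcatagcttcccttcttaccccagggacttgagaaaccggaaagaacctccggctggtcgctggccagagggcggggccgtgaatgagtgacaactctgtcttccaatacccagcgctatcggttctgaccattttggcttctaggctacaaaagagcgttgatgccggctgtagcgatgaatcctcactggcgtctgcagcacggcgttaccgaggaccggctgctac
For each gene the window with the most matches is shown. The Slc16a1 window held 5 such matches, the Ldha window 7 and the Pdk1 window 2, while the Tpi1 and Bpgm windows held none. Another Ldha window held 2 matches and another Pdk1 window held 0. For 34 of the 35 members a window was matched, and 30 of these (88.2%) held at least 1 match in the window with the most, against 46.7% of 27025 genes. A match of these letters is a description of the sequence and not a bound site. Slc16a1 and Pdk1, with the letters in the window shown, and Bpgm, without them, had lower levels in Lats2 cKO. Ldha, with the letters, and Tpi1, without them, had higher levels there. These genes were picked mostly for their fold changes, and whether the letters go with a direction was not tested over the members.

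The members were unequal in level, and FPKM allows genes to be compared per length within a library. Together they made up 0.322% to 0.566% of all FPKM of a library. Pkm, which makes pyruvate in the last step, led in all 16 libraries, and the top 3 members held between 47.6% and 65.9% of the members' summed FPKM. Pkm averaged 458 ± 13.3 FPKM in mpECs (SD, n = 3) and 613 ± 38.7 in bmECs. Aldoa, the aldolase that splits the sugar, and Ldha, the main lactate dehydrogenase, came next in most libraries, with Tpi1 in the place of Aldoa in 5 of the 6 Yap1/Taz libraries. Aldoa held at least 97.9% of the summed FPKM of Aldoa and Aldoc in each library. Eno1 held 81.9% to 99.1% of the enolases, and Ldha 86.5% to 99.3% of the lactate dehydrogenases. Hexokinase was divided differently between tables. Hk3, a hexokinase known from blood cells of the myeloid line, held 53.4% ± 9.36 of the hexokinase FPKM in mpECs and 48.9% ± 8.28 in the Yap1/Taz controls, but 16.1% ± 3.85 in the Lats2 controls, where Hk1 held 83.1% ± 3.23. These tables were normalised separately, so levels set across them carry no test.

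bmECs and mpECs were compared to ask how the EC of the marrow cavity differs from that of the metaphysis. Transcripts of the glucose transporter Slc2a1, the phosphofructokinases Pfkl and Pfkp, Aldoa, Pkm, Ldhb, the lactate transporter Slc16a1 and the kinase Pdk1 were higher in bmECs and that of the transporter Slc16a3 was lower, while the enzymes between aldolase and pyruvate kinase did not pass the test. Of the 30 members above the filter of a mean of 1 FPKM, 8 were called higher in bmECs, 1 was called lower and 21 were not called at an adjusted p under 0.05. Over all 11422 genes tested, 23.5% were called, 13.0% higher and 10.5% lower, against 30.0% of the members. The median log2 fold change of the members was 0.20, and that of all genes was -0.00068. The study's own glycolysis panel, drawn up on these libraries, contains 7 of the members, and 6 of those 7 were called higher, so they are not independent evidence of a direction. Of the 23 tested members outside that panel, Ldhb and Pfkp were called higher and Slc16a3 lower, which is 13.0%. Without overlap between the groups, 10 members were higher and 2 lower, where all tested genes gave 22.1% and 19.2%. The balance of directions depended on the scaling. With limma-voom on recovered reads, which placed the median of all genes at -0.19, 5 members were called higher and 3 lower, and 26.9% of all called genes were higher, against 55.2% on the FPKM scale. The median of the members stood 0.19 above that of all genes on the voom scale too. With the replicate number as a block, 9 members were called higher and 2 lower.

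**Figure D1:**
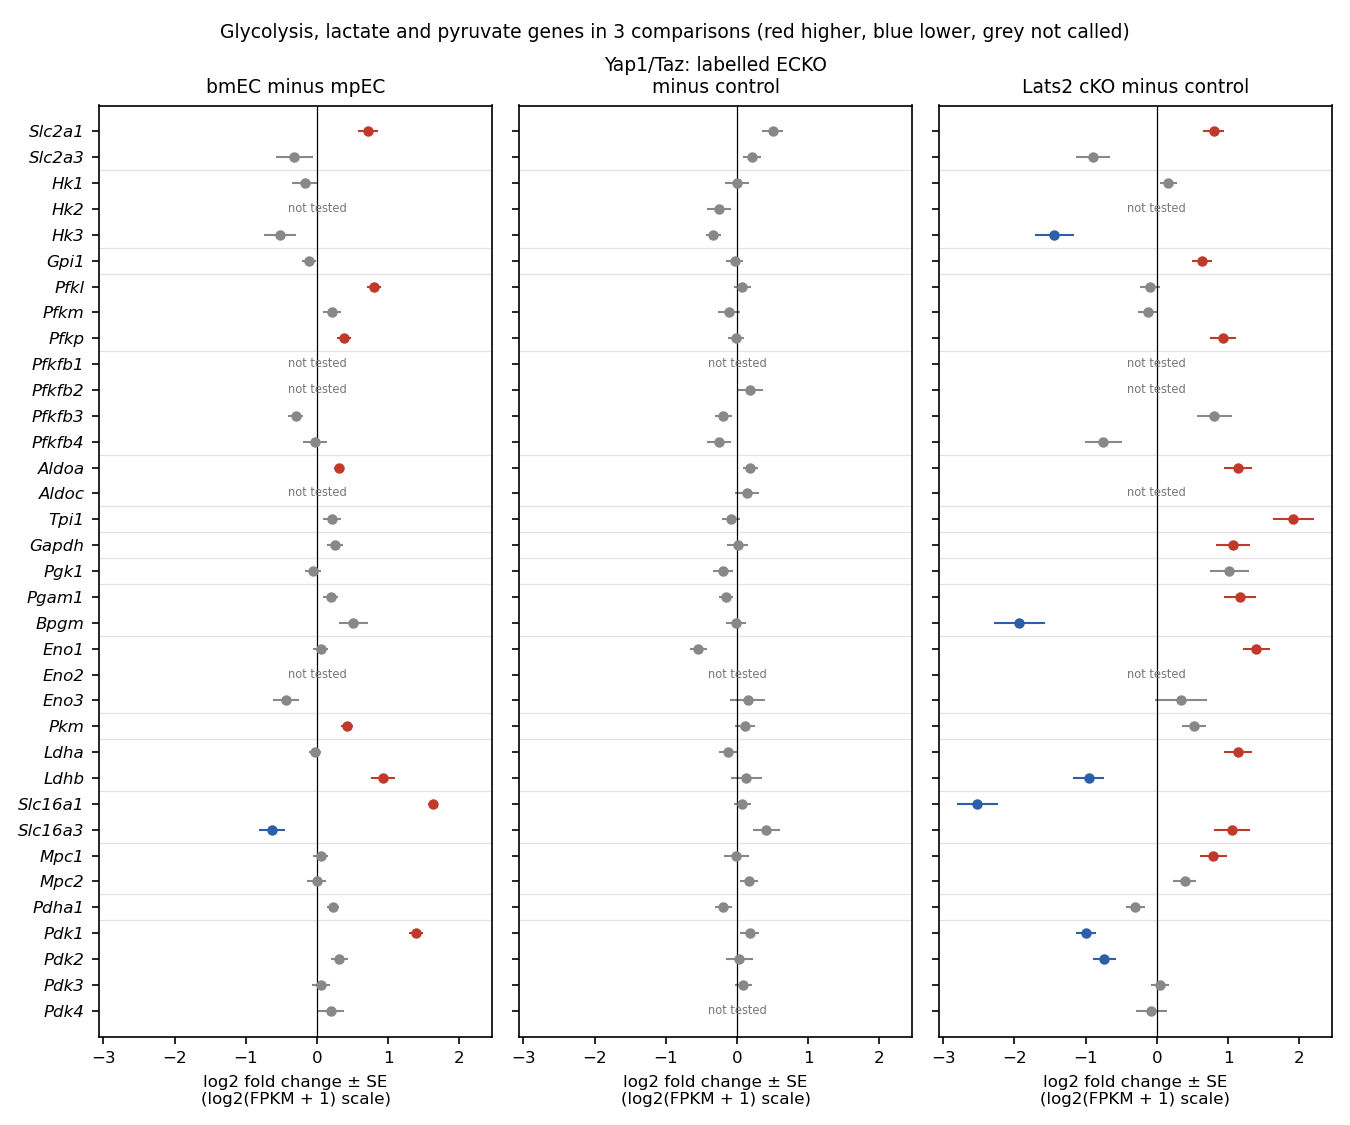
Log2 fold change (log2(FPKM + 1) scale, point) with its standard error (bar) for each of the 35 members, in pathway order from top to bottom, in the 3 comparisons. Red points were called higher and blue points lower at a limma adjusted p under 0.05, grey points were not called, and members under the filter are marked as not tested. Slc16a1 and Pdk1 lie to the right in bmECs and to the left in Lats2 cKO, and no member is coloured in the Yap1/Taz panel.

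Slc16a1 encodes MCT1, a transporter of lactate and pyruvate across the plasma membrane, and lies at chr3:104638668-104658462 on the + strand of GRCm38. It measured 35.2, 36.5 and 34.1 FPKM in mpECs and 106, 117 and 110 FPKM in bmECs. Every bmEC library lay far above every mpEC library, with a log2 fold change of 1.63 ± 0.076 (SE, limma adjusted p = 1.78e-05). The second transporter, Slc16a3 or MCT4, which is known for lactate export from glycolytic cells, went the other way at a much lower level. Its values were 1.57, 1.45 and 2.05 FPKM in mpECs and 0.891, 0.378 and 0.975 FPKM in bmECs. The groups did not overlap (-0.63 ± 0.18, adjusted p = 0.0404), but the lowest bmEC library held 19 reads, and the call was kept in 3 of 11 alternative settings. Slc16a1 thus made up 95.4% ± 0.965 of the summed FPKM of both transporters in mpECs and 99.3% ± 0.308 in bmECs.

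Pdk1, a kinase that inactivates pyruvate dehydrogenase and so keeps pyruvate out of the mitochondrial oxidation, was the other member with a large difference. Its level was 8.62, 9.62 and 8.01 FPKM in mpECs and 24.9, 25.5 and 22.9 FPKM in bmECs (1.39 ± 0.096, adjusted p = 7.57e-05). Each bmEC library was far above each mpEC library. Pdk2, with group means of 7.63 and 9.7 FPKM, Pdk3, with 13.1 and 13.6, and Pdk4, with 1.71 and 2.12, were not called (adjusted p from 0.0967 to 0.771). Pdk1 therefore went from 28.1% ± 2.82 to 49.1% ± 2.05 of the FPKM of the 4 kinases, and Pdk3, first in mpECs with 41.9% ± 5.45, came second in bmECs with 27.2% ± 1.31. Pdha1, the catalytic subunit that these kinases phosphorylate, averaged 33.2 and 38.9 FPKM without a call (adjusted p = 0.102). The carrier subunits Mpc1 and Mpc2 lay between 24.4 and 33.2 FPKM in all 6 libraries, each with a log2 fold change within 0.05 of 0.

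Ldhb, the lactate dehydrogenase subunit favoured in tissues that use lactate, rose from 13, 9.19 and 8.2 FPKM in mpECs to 22.7, 19 and 18.1 FPKM in bmECs (0.93 ± 0.17, adjusted p = 0.00564). All bmEC values exceeded all mpEC values. Ldha was far more abundant at a mean of 153 ± 10.2 and 151 ± 9.83 FPKM, and its groups overlapped (-0.024 ± 0.087, adjusted p = 0.874). Ldhb hence held 6.17% ± 1.24 of lactate dehydrogenase FPKM in mpECs and 11.7% ± 1.7 in bmECs.

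At the entry of the pathway, Slc2a1, the glucose transporter GLUT1, gave 16.1, 22.1 and 21.3 FPKM in mpECs and 28.8, 35.5 and 35.1 FPKM in bmECs (0.72 ± 0.14, adjusted p = 0.00789). The groups were separate, with mpEC replicate 1 the lowest of all. Slc2a3 (GLUT3) overlapped between the groups at 6.09 ± 2.85 and 4.45 ± 0.745 FPKM. No hexokinase was called in this fit. Hk3 averaged 7.54 ± 2.49 FPKM in mpECs and 4.89 ± 1.18 in bmECs (adjusted p = 0.151), and it passed with the replicate number as a block (adjusted p = 0.0228). Hk1 averaged 5.34 ± 0.971 and 4.65 ± 1.19 FPKM (-0.17 ± 0.18, adjusted p = 0.524), and Hk2 lay under the filter. The neutrophil markers, which like Hk3 mark myeloid cells, summed to 11663 to 27859 FPKM in mpECs and 9481.5 to 13914 in bmECs, and their part in the Hk3 values was not tested.

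Phosphofructokinase commits sugar to glycolysis, and Pfkl, its liver-type subunit, led the step. Pfkl measured 31.7, 37.4 and 32.9 FPKM in mpECs and reached 53.9, 60.2 and 66.4 FPKM in bmECs (0.80 ± 0.10, adjusted p = 0.00128). Pfkp, the platelet type, showed a smaller rise from 6.93, 6.85 and 7.79 FPKM to 9.56, 10.2 and 9.21 FPKM (0.38 ± 0.096, adjusted p = 0.0239). The groups did not overlap for either gene, while Pfkm, the muscle type, overlapped at 5.5 and 6.55 FPKM. Among the PFKFB enzymes, which make and remove the activator of phosphofructokinase, Pfkfb3 was the most abundant with 3.26 ± 0.312 FPKM in mpECs and 2.46 ± 0.0813 in bmECs. It was lower in each bmEC library without being called (-0.30 ± 0.11, adjusted p = 0.101), but was called lower with limma-voom (adjusted p = 0.0209). Pfkfb4 overlapped, and Pfkfb1 and Pfkfb2 lay under the filter.

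Further down, Aldoa gave 153, 144 and 150 FPKM in mpECs and 185, 180 and 190 FPKM in bmECs, and Pkm gave 464, 468 and 443 against 642, 569 and 629 FPKM. These differences were small but exceeded the spread between replicates (Aldoa 0.31 ± 0.072, adjusted p = 0.0179, and Pkm 0.42 ± 0.084, adjusted p = 0.00947). The Aldoa call was kept in 5 of 11 alternative settings (adjusted p up to 0.299), the Pkm call in 9 (up to 0.0916) and the Pfkp call in 6 (up to 0.085). The enzymes between them showed overlapping groups. Eno1 averaged 116 ± 16 and 120 ± 0.501 FPKM (0.05 ± 0.10, adjusted p = 0.765), Pgk1 49.2 ± 7.85 and 46.9 ± 0.607 FPKM, and Tpi1 50 ± 7.71 and 57.6 ± 4.1 FPKM. Gpi1, Gapdh and Pgam1 were likewise not called, although Gpi1 was called lower with limma-voom (adjusted p = 0.0432). Bpgm makes the effector that lowers the oxygen affinity of haemoglobin and is known for its level in red cells. It measured 124, 72.6 and 85.3 FPKM in mpECs and 155, 125 and 117 FPKM in bmECs (0.51 ± 0.20, adjusted p = 0.098), and passed with the replicate block (adjusted p = 0.011). The erythroid marker sum ran from 28251 to 52878 FPKM in mpECs and from 42478 to 60395 in bmECs, and its part in the Bpgm values was not tested.

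**Figure D2:**
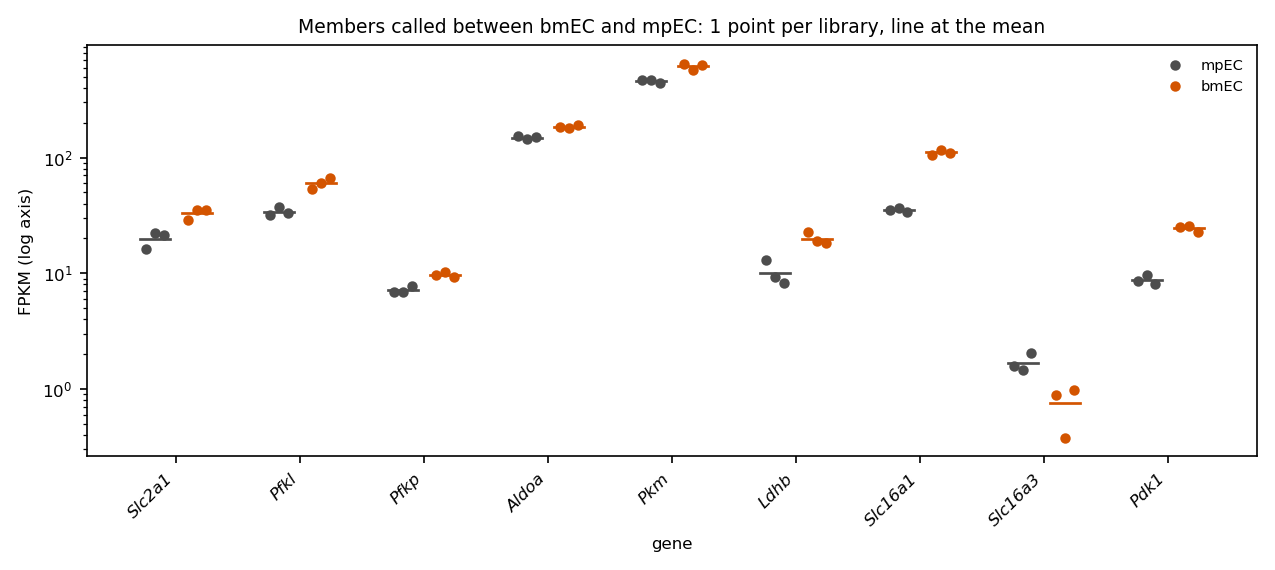
FPKM (log axis) of the 9 members called between bmECs and mpECs, with 1 point for each of the 6 libraries and a line at each group mean. Slc16a1, from 34.1 to 117 FPKM, and Pdk1, from 8.01 to 25.5 FPKM, show the widest gaps, and Slc16a3 is the gene that was lower in bmECs.

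Markers of other cells also differed between the 2 regions. Of the chondrocyte list all 4 tested genes, of the osteoblast list 3 of 5 and of the osteoclast list 3 of 3 were lower in bmECs. The summed chondrocyte level was 19 to 22.9 FPKM in mpECs and 0.0116 to 0.252 in bmECs, where Col2a1 was at 0 in all 3 libraries. The summed osteoblast level was 217 to 760 and 43.8 to 58.2 FPKM. The pericyte and stromal list summed to 187 to 255 FPKM in mpECs and 502 to 549 in bmECs, with Lepr, Adipoq and Kcnj8 called higher and the other 3 tested, Cxcl12, Rgs5 and Acta2, lower on average without a call. The 6 genes of the sorting stress list summed to 756, 762 and 1084.8 FPKM in mpECs and to 2491.3, 2937.6 and 882 in bmECs, with Jun called higher. Replicate 3 of the bmECs thus stood with the mpECs on that list. All 7 proliferation genes were lower in bmECs. Of the 8 endothelial markers 2 were called higher in bmECs (Kdr and Tek) and 3 lower (Emcn, Tie1 and Pecam1). How far these differences enter the values of the members was not tested.

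In the comparison of libraries labelled Yap1/Taz ECKO with their controls, no glycolysis, lactate or pyruvate gene was called. Of the 32 members tested, 0 passed an adjusted p of 0.05 in limma, 3 had an unadjusted p under 0.05, and 1 (Eno1) was called, as lower, both after quantile normalization and with limma-voom on recovered reads. Over all 11320 genes, 1.31% were called (0.883% higher and 0.424% lower), and 17.9% had an unadjusted p under 0.05, which is a larger share than that of the members. Of the called genes 67.6% were higher, and 57.5% with limma-voom. The median log2 fold change was 0.0062 for the members and -0.0047 for all genes. Without overlap between groups, 2 members were higher and 4 lower, beside 12.3% and 11.3% of all genes. Eno1, which makes phosphoenolpyruvate, came closest. It gave 37.4, 37 and 31.4 FPKM in controls and 21.9, 22.7 and 27.6 FPKM in libraries labelled ECKO, with no overlap (-0.54 ± 0.12, adjusted p = 0.0638). Slc2a1 gave 20.5, 21.5 and 15.1 FPKM against 23.4, 29.7 and 28.2 FPKM (0.50 ± 0.15, adjusted p = 0.117). Each library labelled ECKO was above each control for Slc2a1, and the third gene, Hk3, was below in each at 17.6 ± 1.17 and 13.8 ± 0.856 FPKM (-0.33 ± 0.10, adjusted p = 0.128).

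Of the members called between mpECs and bmECs, Slc2a1 and Aldoa had groups that did not overlap here, and the other 7 overlapped. Slc16a1 averaged 27 ± 3.78 and 28.4 ± 1.88 FPKM (0.078 ± 0.12, adjusted p = 0.787), and Pdk1 19.7 ± 3.13 and 22.4 ± 2.67 FPKM (0.18 ± 0.13, adjusted p = 0.518). Slc16a3 averaged 5.14 ± 1.23 and 7.16 ± 1.69 FPKM (0.41 ± 0.19, adjusted p = 0.284). The leading genes of the remaining steps were not called either. Pkm averaged 373 ± 46.3 and 402 ± 53.9 FPKM (adjusted p = 0.738), Ldha 169 ± 25.2 and 155 ± 13.7 (adjusted p = 0.67), and Aldoa 95.9 ± 10.8 and 109 ± 5.91 (adjusted p = 0.384). Their standard errors lay between 0.11 and 0.14 on the log2 scale, and a p that misses the threshold does not show equal levels. Pfkl stood at 31 and 32.5 FPKM, and Pdk3, the leading kinase of this table, at 23.1 and 24.5 FPKM. The 8 endothelial markers were each higher in all libraries labelled ECKO without being called, with sums of 508 to 519 and 597 to 693 FPKM. The osteoblast sum ran from 32 to 44.2 FPKM in controls and from 11.1 to 24.3 FPKM in the libraries labelled ECKO. Col1a1 and Bglap of this list were called lower, and Ppbp of the megakaryocyte list higher. The B cell sum was 259 to 310 FPKM in controls and 217 to 222 in the libraries labelled ECKO. In the same order, the pericyte and stromal sum was 65 to 72.7 and 80.8 to 104, and the proliferation sum 253 to 276 and 227 to 237. Of the 6 pericyte and stromal genes tested, 3 were higher and 3 lower in log2 fold change, and none was called. The part of these lists in the values of Eno1 and Slc2a1 was not tested.

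Lats2 cKO was compared with control because Lats2 acts upstream of Yap1 and Taz, although the gene-level Lats2 transcript was only slightly lower and not called, as given above. In Lats2 cKO 9 genes between glucose uptake and lactate dehydrogenase, Slc16a3 and Mpc1 were called higher, whereas Slc16a1, Bpgm, Hk3, Ldhb, Pdk1 and Pdk2 were called lower. Of 30 members tested, 11 were called higher, 6 lower and 13 not, which is 56.7% called, where 21.8% of all 12453 genes were called, 11.8% higher and 9.98% lower. The median log2 fold change was 0.36 for the members and -0.0033 for all genes. With limma-voom on recovered reads, which placed the median of all genes at -0.14, 12 members were called higher and 8 lower, and 38.3% of all called genes were higher, against 54.1% on the FPKM scale. Of the members on the study's panel 5 of 7 were called, and of those outside it 12 of 23. With 2 libraries a side, values without overlap are common: 34.0% of all genes were higher and 34.2% lower in this way, against 16 and 10 of the 30 members. The calls rest on few libraries. Without either control replicate no member was called, and no other gene either, and the remaining control is then assumed to vary like the cKO pair. Without cKO replicate 1, 14 members were called higher and 5 lower, and without cKO replicate 2, only 3 higher (Aldoa, Eno1 and Tpi1) and 1 lower (Slc16a1).

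Tpi1, which interconverts the 3-carbon sugars, changed most among the genes that rose. It measured 40.1 and 44.4 FPKM in controls and 120 and 220 FPKM in cKO (1.92 ± 0.29, adjusted p = 0.0156). Eno1 rose from 52 and 54.5 to 119 and 170 FPKM (1.40 ± 0.19, adjusted p = 0.0131), Aldoa from 115 and 126 to 223 and 323 FPKM (1.14 ± 0.20, adjusted p = 0.021). For all of them cKO replicate 2 was the higher of the pair, and the groups were clearly apart. Pgam1, the mutase that feeds enolase, went from 12.8 and 11 to 22.3 and 35 FPKM (1.17 ± 0.23, adjusted p = 0.0272). Gapdh, the dehydrogenase that yields NADH, went from 7.84 and 7.01 to 13 and 21.3 FPKM (1.07 ± 0.24, adjusted p = 0.0359). Gpi1, the isomerase next to hexokinase, rose less, from 47.1 and 51.7 to 70.7 and 83.1 FPKM (0.63 ± 0.14, adjusted p = 0.032). Pgk1, which makes the first ATP of the chain, had a log2 fold change of similar size at 20.2 and 17.7 against 29.9 and 52.1 FPKM, but was not called (1.02 ± 0.27, adjusted p = 0.0523). Pkm was also above controls in both cKO libraries without a call, at 509 and 572 against 692 and 860 FPKM (0.52 ± 0.17, adjusted p = 0.085).

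**Figure D3:**
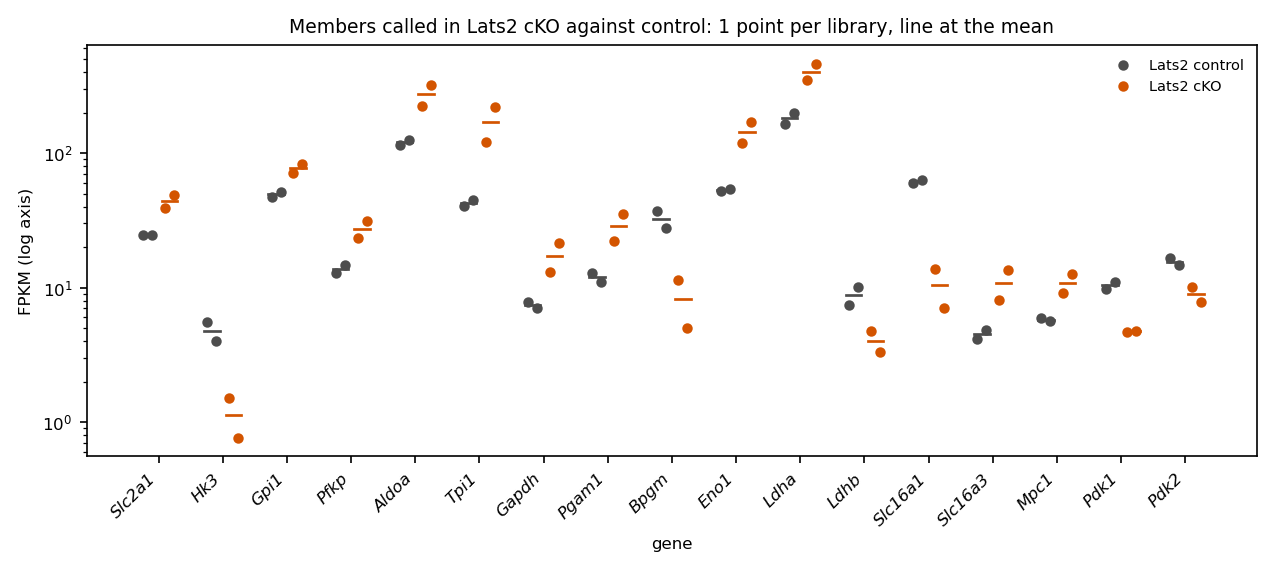
FPKM (log axis) of the 17 members called in Lats2 cKO against control, with 1 point for each of the 4 libraries and a line at each group mean. Slc16a1 falls from 60 and 62.9 FPKM to 13.8 and 7.03 FPKM, Tpi1 rises to 120 and 220 FPKM, and in every gene shown the cKO points lie on one side of the controls.

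The transcripts of the glucose transporters differed in direction. Slc2a1 gave 24.6 FPKM in both controls and 38.9 and 48.8 FPKM in cKO (0.80 ± 0.15, adjusted p = 0.0228), while Slc2a3 gave 2.16 and 3.02 against 1.06 and 0.776 FPKM and was not called by limma (adjusted p = 0.0534), but was called lower with limma-voom (adjusted p = 0.0116). Hexokinase did not rise with them. Hk1 held 24.5 ± 1.2 and 27.4 ± 0.359 FPKM (0.16 ± 0.12, adjusted p = 0.37), and Hk3 fell from 5.51 and 3.97 to 1.51 and 0.764 FPKM (-1.44 ± 0.27, adjusted p = 0.0231). Within phosphofructokinase the platelet-type Pfkp rose from 12.9 and 14.7 to 23.4 and 31.4 FPKM (0.93 ± 0.18, adjusted p = 0.0245). Pfkp was called higher in bmECs too. Pfkl, the most abundant subunit and likewise higher in bmECs, overlapped at 67.5 and 69.5 against 58.2 and 70.7 FPKM (-0.094 ± 0.14, adjusted p = 0.655). Pfkp thus went from 15.3% ± 0.875 to 27.5% ± 1.83 of the FPKM of the step. Pfkfb3, the PFKFB enzyme with the strongest known kinase activity, stood at 2.6 and 2.94 against 4.37 and 7.17 FPKM (0.81 ± 0.24, adjusted p = 0.0693), and Pfkfb4 at 2.03 and 1.32 against 0.536 and 0.609 FPKM (adjusted p = 0.101).

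At the lactate branch the paired isoforms moved in opposite directions. Ldha rose from 165 and 197 to 348 and 458 FPKM (1.14 ± 0.19, adjusted p = 0.0175), and Ldhb fell from 7.42 and 10.1 to 4.73 and 3.33 FPKM (-0.96 ± 0.22, adjusted p = 0.0374). Both genes kept the 4 libraries apart by group. Slc16a1 was at 60 and 62.9 FPKM in controls and at 13.8 and 7.03 FPKM in cKO (-2.52 ± 0.29, adjusted p = 0.0105), the largest log2 fold change of the set. Slc16a3 rose from 4.16 and 4.87 to 8.12 and 13.5 FPKM (1.06 ± 0.25, adjusted p = 0.0392). The pair of transporters was accordingly divided anew, with Slc16a3 at 6.48% and 7.18% of their summed FPKM in controls and 37.1% and 65.7% in cKO. Of the mutases, Bpgm fell from 37.2 and 27.6 to 11.4 and 5.04 FPKM (-1.93 ± 0.36, adjusted p = 0.0237). Pgam1 went from 27.1% ± 2.03 to 76.8% ± 15 of the summed FPKM of Pgam1 and Bpgm.

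At the mitochondrial branch, Mpc1 rose from 5.89 and 5.65 to 9.04 and 12.6 FPKM (0.79 ± 0.19, adjusted p = 0.04), and Mpc2, the more abundant subunit, was not called (0.39 ± 0.16, adjusted p = 0.149). A pair of kinases fell. Pdk1 went from 9.71 and 11 to 4.67 and 4.78 FPKM (-0.99 ± 0.14, adjusted p = 0.0141), and Pdk2, the most abundant kinase of the controls, from 16.5 and 14.7 to 10.1 and 7.87 FPKM (-0.74 ± 0.16, adjusted p = 0.0326). Pdk3 stayed at 10.9 ± 0.611 and 11.2 ± 0.54 FPKM, so that its share rose from 27.9% ± 0.547 to 41.8% ± 0.765 of the 4 kinases. Pdha1 averaged 27.8 and 22.4 FPKM and was not called (adjusted p = 0.171).

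**Figure D4:**
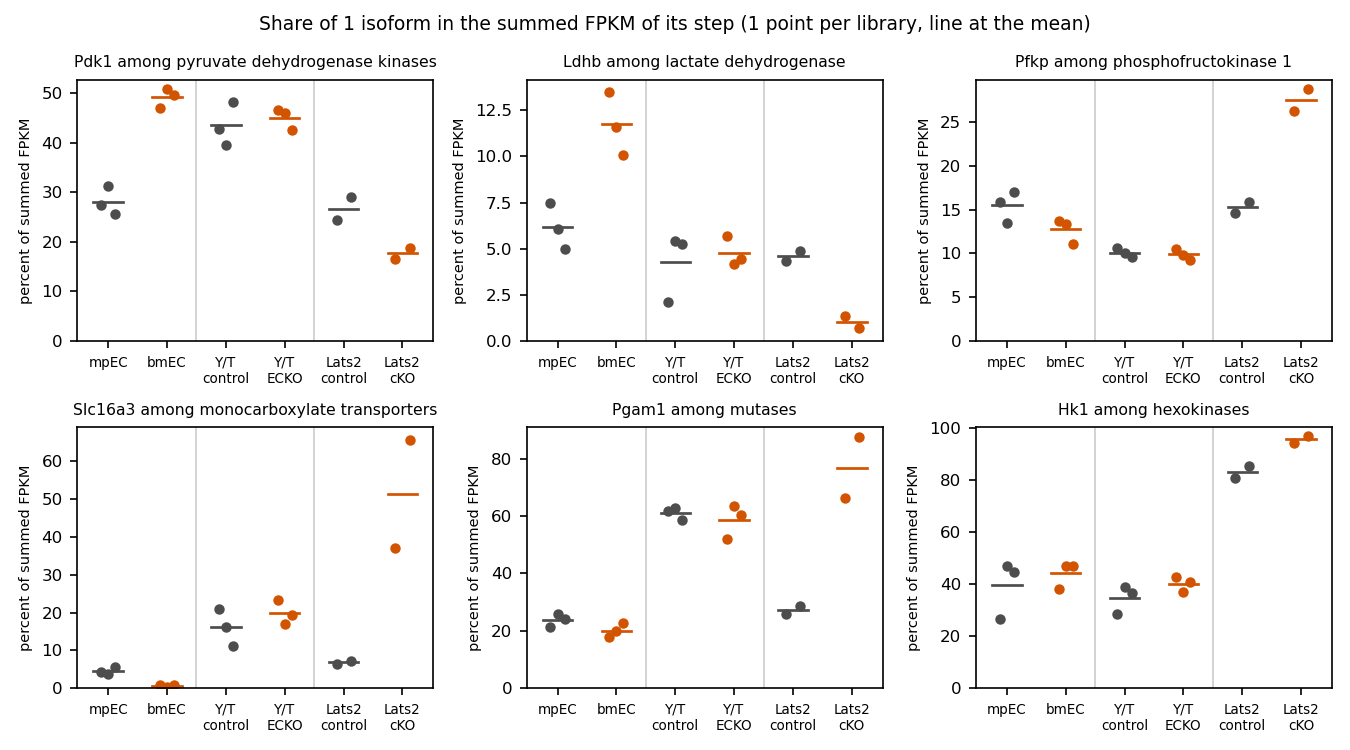
Percent of the summed FPKM of a step held by 1 gene, with 1 point per library and a line at the group mean, for the 3 comparisons side by side (Y/T stands for Yap1/Taz, and ECKO for the libraries so labelled). Pdk1 reaches 46.9% to 50.9% in bmECs, and Slc16a3 37.1% and 65.7% in Lats2 cKO, while the Yap1/Taz groups overlap in all 6 panels.

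The isoform shares could not reach significance by design. In each comparison 29 shares were tested by a two-sided exact permutation test, whose smallest p is 0.1 with 3 against 3 libraries and 1 in 3 with 2 against 2. The smallest adjusted p were 0.193 in bmECs against mpECs, 0.892 in the Yap1/Taz comparison and 0.439 in Lats2 cKO. Shares within a step sum to 100%, so those of a pair of genes are mirror images. Mpc1 and Mpc2, which are subunits of the carrier, and Pgam1 and Bpgm, which have different roles, are not isoforms of each other.

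Most markers of blood cells were lower in Lats2 cKO as well. Of the 8 neutrophil markers 6 were called lower, of 6 tested B cell markers 5, and of 7 erythroid markers 1 (Slc4a1), with none called higher. The erythroid sum was 2436.0 to 3669.6 FPKM in controls and 243 to 1395.0 in cKO, and the neutrophil sum 1949.1 to 2907.4 and 708 to 854, with Elane and Mpo at 0 in cKO replicate 2. Macrophage markers summed to 613 to 712 FPKM in controls and 111 to 360 in cKO, a sum led by Lyz2 and Mrc1. Of 7 tested 1 was called lower (Mrc1), and C1qa and C1qb were higher without overlap. The proliferation list summed to 57.4 and 59.1 FPKM in controls and 102 and 79.5 in cKO. All 7 genes were above 0 in log2 fold change, and Cdk1 and Birc5 were called higher. Ctsk was called higher of 3 osteoclast genes tested, Spp1 of 5 osteoblast genes and Atf3 of 6 sorting stress genes, and none lower. The other 4 osteoblast genes tested were below 0 in log2 fold change, as was 1 gene of each of the other 2 lists. The part of these lists in the rise of the members was not tested. The genes that fell include Bpgm and Hk3, known from red and myeloid cells, and the part of these cells in the falls was not tested. The endothelial sum was about level, from 2057.6 to 2225.4 FPKM in controls and 2144.3 to 2155.5 in cKO, but single markers were not. Pecam1 was called higher, from 198 to 357 FPKM on average, and Kdr (331 and 173 FPKM) and Tek (214 and 86 FPKM) were called lower. Kdr and Tek were called higher in bmECs than in mpECs, and Pecam1, Emcn and Tie1 lower. Emcn and Tie1 were not called in Lats2 cKO. The pericyte and stromal sum fell from 398 to 444 FPKM to 128 to 148 FPKM. Of that list Kcnj8 was called lower (379 and 69 FPKM on average), while Acta2, Rgs5 and Cxcl12 were called higher.

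**Figure D5:**
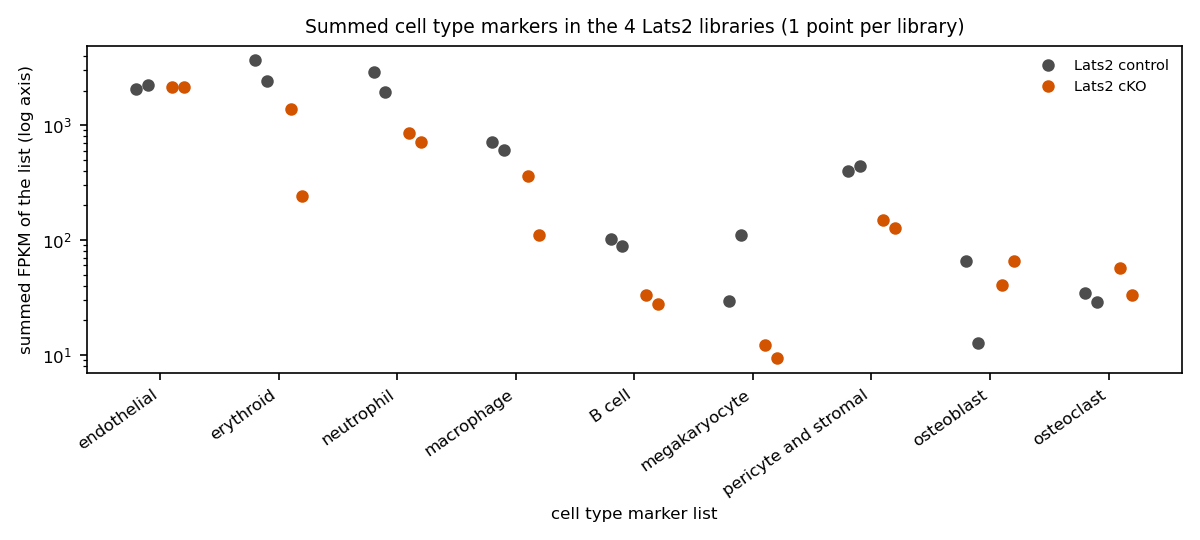
Summed FPKM (log axis) of 9 cell type marker lists in the 4 Lats2 libraries, 1 point per library. The endothelial sums lie together near 2057.6 to 2225.4 FPKM, whereas the erythroid, neutrophil, macrophage and B cell sums are lower in both cKO libraries than in both controls.

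Set side by side in limma without a block, the calls in the regional comparison and in Lats2 cKO did not form a single pattern. No library is shared between them. Of the 9 members called between bmECs and mpECs and the 17 called in Lats2 cKO, 7 were called in both. How many of all genes were called in both, in the same or in opposite directions, was not counted. The counts here therefore do not show a pattern particular to the members. Slc2a1, Pfkp and Aldoa were higher in bmECs and in cKO. Slc16a1, Pdk1 and Ldhb were higher in bmECs and lower in cKO, and Slc16a3 was lower in bmECs and higher in cKO, which makes 4 in opposite directions. Pfkl and Pkm were called in bmECs only, and 10 members in cKO only, namely Gpi1, Tpi1, Gapdh, Pgam1, Eno1, Ldha, Mpc1, Hk3, Bpgm and Pdk2. With the replicate block Bpgm (higher) and Hk3 (lower) were called in bmECs as well. The difference between the comparisons was not tested. In limma without a block, 19 of the 35 members were called in at least 1 comparison and 16 in none. No such count was made over all genes. Of these 16, Pfkfb3, Pgk1, Slc2a3 and Pfkfb4 were called under an alternative setting, and Pfkfb1 and Eno2 were under the filter in every table, and Aldoc, Hk2 and Pfkfb2 in 2 of 3.

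Some further genes of the pathway were called in Lats2 cKO. The monocarboxylate transporter family gene Slc16a6 rose from 1.03 and 1.17 to 3.64 and 6.62 FPKM (limma adjusted p = 0.0241). The glucose transporter family gene Slc2a10 rose from 5.4 and 4.47 to 8.39 and 10.8 FPKM (0.83 ± 0.18, adjusted p = 0.0326), and the phosphatase Pgp from 63.6 and 61.9 to 85.7 and 97 FPKM (0.53 ± 0.12, adjusted p = 0.0362). The groups did not overlap for any of the 3. Of all genes in Lats2 cKO, 11.8% were called higher and 34.0% were higher without overlap. The 3 calls therefore do not show that further pathway genes differed more often than other genes. Pgp was not called with limma-voom, while Slc16a6 and Slc2a10 were.

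The side branches were the pentose phosphate pathway, glycogen and the polyol route, with 20 genes. Between bmECs and mpECs 3 of 18 tested (16.7%, where 23.5% of all genes were called) were higher in bmECs, Sord (0.92 ± 0.11, adjusted p = 0.000683), Tkt (0.70 ± 0.11, adjusted p = 0.00319) and Pgm1 (0.46 ± 0.075, adjusted p = 0.00387). Sord makes fructose from sorbitol, and Tkt is the transketolase of the pentose phosphate pathway. In the Yap1/Taz comparison none of 20 was called. In Lats2 cKO Pgm2 (1.11 ± 0.18, adjusted p = 0.0185) and Taldo1 (0.59 ± 0.13, adjusted p = 0.0317) were higher, and Sord (-1.96 ± 0.25, adjusted p = 0.0116), Pygl (-1.58 ± 0.34, adjusted p = 0.0325) and Gbe1 (-0.69 ± 0.17, adjusted p = 0.0469) were lower, of 19 tested (26.3%, where 21.8% of all genes were called). Sord was thus called higher in bmECs and lower in Lats2 cKO.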

How the data were processed

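RNA-seq of mouse bone ECs was analysed in 16 libraries, of which 3 mpEC and 3 bmEC, 3 and 3 Yap1/Taz, and 2 and 2 Lats2 libraries were compared within their own table. The deposited values are FPKM per gene, made by the authors from TopHat alignments to GRCm38 and HTSeq 0.6.1. The step to FPKM and the treatment of strand and multiple matches were not given in the sources used here. DESeq2, named in the submitters' processing notes, was not used here.

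Genes whose mean over the libraries of a comparison reached 1 FPKM were tested as log2(FPKM + 1) with limma 3.58.1 in R 4.3.3 (eBayes with trend, Benjamini-Hochberg adjustment over all genes tested in the table), and called at an adjusted p under 0.05. Fold changes on this scale understate those of low genes. Reads were estimated from the steps between low FPKM values: 62.4% to 70.0% of them came within 0.02 of a whole read, where chance gives 4%, so these reads served only for depth and for limma-voom. Figures and tables used Python 3.11.15, scipy 1.17.1 and matplotlib 3.10.9. The fit was tested on simulated data.

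The alternatives were a pseudocount of 0.1, no filter, quantile normalization, limma-voom, a stricter threshold (adjusted p under 0.01 and a log2 fold change over 0.5 in size), the replicate number as a block, and leaving out each library. In mpECs and bmECs the deviations of same-numbered libraries from their group means correlated at r = 0.39, 0.13 and 0.11, each above 0.1. Replicate 2 of the mpECs was closer to replicate 3 of the bmECs (r = 0.15) than to its own number. Pairing by replicate number is therefore uncertain there. The main fit used no block, and results with the block are given beside it as an alternative.

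All 35 members are accounted for, with full statistics for those called in at least 1 comparison and for the leading gene of each step. For other lists up to 5 called genes with the largest change are named. Some genes of the list of further pathway genes are not reported here, so no counts are given for that list. Members, lists and tests were chosen with earlier results of these data known, and 7 members (Slc16a1, Pdk1, Pfkl, Slc2a1, Pkm, Aldoa and Eno1) stand on a glycolysis panel the study drew from these libraries. No column was left without a sample. Gene positions and exons came from GENCODE on GRCm38, and promoters from RefSeq on GRCm38.p6. Shared sequence was counted as 50-base windows of the longest coding transcript.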

Additional observations from a re-analysis of the deposited data

How the results depend on the processing

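Of the 26 calls of a member in a comparison, 5 were kept under every alternative, all between bmECs and mpECs (Slc2a1, Pfkl, Ldhb, Slc16a1 and Pdk1). Over 252 values 171 stayed on their side of the threshold, 81 did not and 0 changed sign. These values, like the tallies of settings given above for single genes, leave out the stricter threshold. Between bmECs and mpECs the 8 members called higher became 6 after quantile normalization and 5 with limma-voom or the stricter threshold, and the 1 called lower (Slc16a3) became 0 with a pseudocount of 0.1, no filter, quantile normalization or the stricter threshold and 3 with limma-voom. With the replicate block 9 were higher and 2 lower, adding Bpgm and Hk3, and it changed no other call of a member there. Leaving out a library gave 6 to 9 higher and 0 to 1 lower, with Slc16a3 kept only without bmEC replicate 3. In the Yap1/Taz comparison 1 member (Eno1) became lower after quantile normalization and with limma-voom, and leaving out a library gave 0 in each direction. Same-numbered Yap1/Taz libraries correlated at -0.22, -0.18 and -0.20, and none was closest to its own number, while the Lats2 pairs stood at 0.10. The replicate block gave 0 and 0 members in the first and 13 higher, with Pfkfb3 and Pgk1 added, and 6 lower in the second. In Lats2 cKO the 11 higher and 6 lower became 4 and 2 without the filter and 0 and 0 at the stricter threshold. Leaving out a library gave 0 to 14 higher and 0 to 5 lower, with 0 without either control, and 3 and 1 without cKO replicate 2. Over all genes the 148 Yap1/Taz calls became 358 with limma-voom, 1 without the filter, 45 with the block, and 1 to 293 without a library, and the 2711 Lats2 calls 1389 without the filter and 0 to 2701 without a library. Leaving out a library raised some of these counts and lowered others, and the cause of the changes was not tested. Depth limits Slc16a3, Hk3 and Ldhb, whose lowest libraries held 19, 14 and 26 reads.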
